A study of Mus musculus with 4 samples.

Results

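Carbonic anhydrases are zinc enzymes that interconvert carbon dioxide and bicarbonate, and 10 of their genes (Car1, Car2, Car3, Car4, Car5b, Car7, Car8, Car9, Car12 and Car13) were described in RNA of the mouse colon. They were taken by gene symbol from 55203 genes listed for each library, and 37 of the 141738 transcripts belonged to them. Each gene level is the sum of its transcripts in FPKM, a fragment number divided by transcript length and by the mapped total, so that levels of different genes can be set side by side per length.

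The tissue came from adult male C57BL/6NTac mice, wild type, aged 8 to 12 weeks and kept free of specific pathogens. Of the 4 RNA-seq libraries, 2 carry the label RVC, a ribonucleoside vanadyl complex that inhibits ribonucleases, used at 4 mM, and the other 2 the label fresh frozen. One protocol text, with an RVC rinse, accompanied both groups, so how fresh frozen tissue was handled is known by label only. The series was made to set bulk expression beside an imaging method, and no separate purpose of the RVC comparison was given in the labels.

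In the colon, bicarbonate and protons formed by these enzymes supply the exchangers that take up sodium and chloride at the surface of the epithelium. The family is divided by place in the cell: Car1, Car2, Car3, Car7 and Car13 are cytosolic, Car5b is mitochondrial, and Car4, Car9 and Car12 hold their active site outside the cell on the plasma membrane. Car8 is a related cytosolic protein that lacks the enzyme activity.

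The labels call the tissue ileum and the protocol distal colon. Of 10 colon genes listed as markers, 9 had a mean of at least 1 FPKM, led by the water channel gene Aqp8 (mean 824 FPKM), Sycn (752) and the posterior homeobox gene Hoxb13 (122). Of 12 ileum genes, 4 did, led by Fabp2 (22.8), Fabp6 (3.37) and Slc10a2 (2.73), and 5 had 0 FPKM in every library (Defa17, Defa22, Defa26, Fgf15 and Apoa4). Some of these genes differed widely within a group. In the first and second fresh frozen library Hoxd13 measured 39.5 and 5.68 FPKM, Hoxd11 6.26 and 0.889, and Hoxd12 1.87 and 0.162. With RVC each was higher in the second library, Hoxd11 at 5.43 against 1.56 FPKM. Fabp2 was at 43.7 FPKM in the second fresh frozen library and 14.5 to 16.8 in the others. Hoxb13 was steadier, at 98.5 to 133 FPKM. Whether sampled position differed between libraries was not tested. Relative depth, read from coverage, was 72.6% to 100% of the deepest library, and 14247 to 14573 genes reached 1 FPKM. Pearson's r of log2 levels across genes was 0.988 and 0.986 within groups and 0.977 to 0.982 between them. No label says that the libraries came from separate animals, so p-values measure the spread between these samples, which may be technical. Batch numbers differ for all 4 libraries, and batch therefore cannot be told apart from group.

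Sequence before annotated RefSeq starts was looked up for the family in the RefSeq promoter table (GRCm38.p6), which held 7 starts of 5 members: Car4, Car5b, Car7, Car9 and Car12. Car1, Car2, Car3, Car8 and Car13 are named only. The 250 bases before each start were searched on both strands for 3 motifs. The core letters of the hypoxia response element, ACGTG, stood in 16.6% of all 32851 promoters of the table over the same length. The TATA box, searched as TATAAA, stood in 12.4% of them. The GC box, searched as GGGCGG, stood in 32.7%. The motifs share no letters in the windows shown. Among the 7 windows of the family, the hypoxia response core stood in that of Car9 alone, 1 time, on the reverse strand and 18 bases before the RefSeq start. The most abundant Car9 transcript of the libraries starts 60 bases before that RefSeq start, so the match lies within its first exon. A GC box stood in 4 of the 7 windows, with 1 in that of Car12, 2 in that of Car5b, and 3 and 1 in the windows of 2 of the 3 Car7 starts. The transcripts that begin at those 2 Car7 starts had means of only 9.3e-07 and 7.8e-07 FPKM. The window at the start of the main Car7 transcript held no GC box. The Car12 box lay on the reverse strand, 35 bases before the start. No window held a TATA box by these letters. The Car4 window held none of these letters, which says only that they are not in those bases. A stretch of 30 bases from each of these 3 windows is shown, because they belong to the membrane-bound members whose levels are described below, with the matched letters in capitals and all read along the gene's own strand (chr4:43506996-43507025 for Car9, chr9:66713639-66713668 for Car12 and chr11:84957724-84957753 for Car4, all plus strand, GRCm38.p6).
Car9: ctatttccgatgCACGTacagcccgtccac
Car12: gggctttctgccCCGCCCtcctgcctgatg
Car4: gagaggctccgccaggaggaggagccgact
The Car4 stretch is the last 30 bases before the RefSeq start and has no capitals. In GENCODE vM39, all 250 bases of each of these 3 windows also lie within an annotated exon. The exon is one of Car4 and of Car12 for those windows, and of Car9 or the opposite-strand gene Gm12454 for that of Car9. These windows thus lie before the RefSeq start but not outside every annotated transcript. The 190 bases of the Car9 window that lie before the start of its most abundant transcript (chr4:43506776-43506965, plus strand, GRCm38.p6) held no match to the 3 motifs.
Car9 upstream: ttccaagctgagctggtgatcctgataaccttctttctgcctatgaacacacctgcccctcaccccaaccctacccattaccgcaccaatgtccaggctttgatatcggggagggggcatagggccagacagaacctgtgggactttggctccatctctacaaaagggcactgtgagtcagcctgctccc

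Of the 10 members, 3 carried nearly all of the family's RNA. Car4, Car1 and Car2 made up 99.1% to 99.2% of the summed family level in every library. That sum was 4725 and 4073 FPKM in the RVC libraries and 4079 and 3363 FPKM in the fresh frozen ones, or 0.396% to 0.495% of the FPKM of all genes. Car9 and Car13 followed at means of 22.3 and 8.21 FPKM, and the other 5 members lay below a mean of 1 FPKM.

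**Figure D1:**
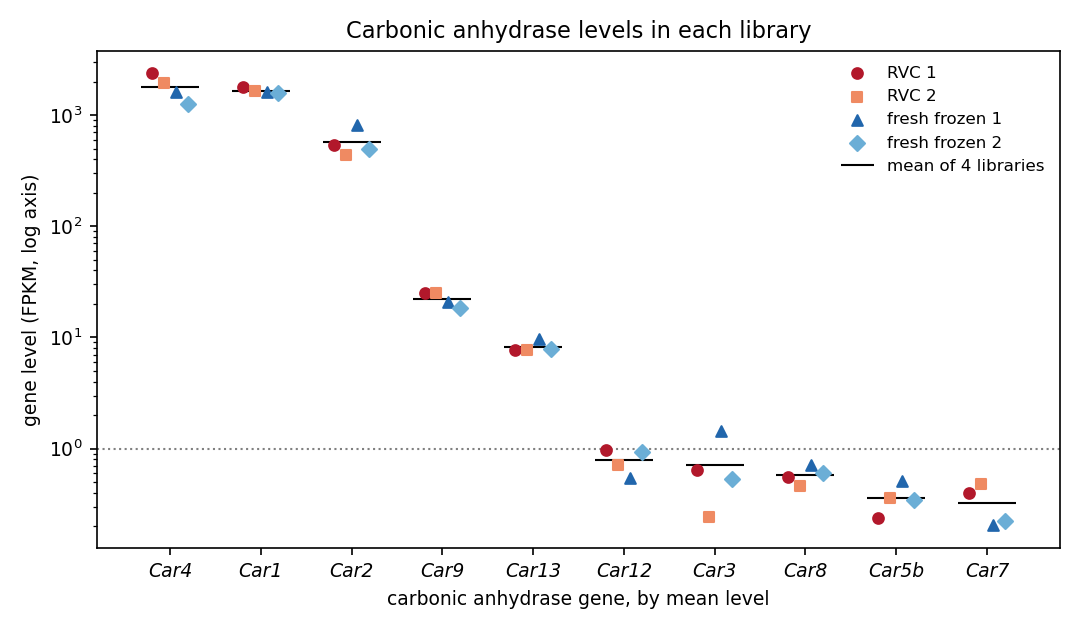
Level of each member in each of the 4 libraries (FPKM, log axis), ordered by mean, with a bar at the mean and a dotted line at 1 FPKM. Car4, Car1 and Car2 lie between 435 and 2373 FPKM, Car9 and Car13 between 7.66 and 25.2, and the other 5 at or below 1.43.

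Car4, a membrane-anchored enzyme of the apical colonocyte surface (ENSMUSG00000000805, chromosome 11, 84848612 to 84856870, plus strand, GRCm39), had the highest mean level. It measured 2373 and 1948 FPKM with RVC and 1626 and 1265 FPKM in fresh frozen tissue, a mean of 1803 ± 471 (SD, n = 4). Both RVC libraries lay above both fresh frozen ones. Among all genes Car4 ranked 49 and 53 with RVC, 55 and 82 in fresh frozen tissue.

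Car1, a cytosolic enzyme abundant in colonocytes and red blood cells (ENSMUSG00000027556, chromosome 3, 14831276 to 14873428, minus strand), was the steadiest member in proportion to its level. It measured 1781 and 1654 FPKM in the RVC libraries and 1608 and 1576 FPKM in the fresh frozen ones, a mean of 1655 ± 90.2 (SD, n = 4). Its coefficient of variation was 5.45%, against 26.1% for Car4 and 29.3% for Car2. It ranked between 56 and 62 among all genes in the 4 libraries.

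Car2, the widespread and very fast cytosolic enzyme (ENSMUSG00000027562, chromosome 3, 14951333 to 14965830, plus strand), measured 535 and 435 FPKM in the RVC libraries and 811 and 493 FPKM in the fresh frozen ones, a mean of 569 ± 167 (SD, n = 4). The first fresh frozen library stood above the other 3, and the other fresh frozen library lay between the RVC values, so the groups overlapped.

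Car9, a membrane enzyme known as a target of the hypoxia pathway (ENSMUSG00000028463, chromosome 4, 43506966 to 43513729, plus strand), measured 25.0 and 25.2 FPKM with RVC and 20.8 and 18.4 FPKM in fresh frozen tissue, a mean of 22.3 ± 3.31 (SD, n = 4). Both RVC libraries were above both fresh frozen ones. A listed gene on the opposite strand, Gm12454, shares 431 bases with the most abundant Car9 transcript at 100% identity and was listed at 4.96 ± 0.517 FPKM (SD, n = 4). A strand setting of the authors' estimate is not given in the sources used here, so reads of Car9 and Gm12454 may not be told apart.

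Car13, a cytosolic enzyme (ENSMUSG00000027555, chromosome 3, 14706787 to 14728062, plus strand), measured 7.66 and 7.67 FPKM with RVC and 9.66 and 7.86 FPKM in fresh frozen tissue. Its mean was 8.21 ± 0.968 (SD, n = 4), and both RVC libraries lay below both fresh frozen ones, the second of these by a small margin.

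The remaining members were low. Car12, the membrane enzyme of many secretory epithelia (chromosome 9, 66620968 to 66674127), measured 0.974 and 0.711 FPKM with RVC and 0.545 and 0.927 FPKM in fresh frozen tissue. Car3, the cytosolic form of muscle and fat (chromosome 3, 14928572 to 14937583), measured 0.642 and 0.241 FPKM with RVC and 1.43 and 0.530 FPKM in fresh frozen tissue. Its highest library was 5.94 times its lowest, the widest ratio of the 10 members, and the high value came from the first fresh frozen library. Car8 (chromosome 4, 8143362 to 8239041) measured 0.560 and 0.462 FPKM with RVC and 0.710 and 0.599 FPKM in fresh frozen tissue, with no overlap of the groups. The mitochondrial Car5b (chromosome X, 162759818 to 162810993) measured 0.237 and 0.361 FPKM with RVC and 0.511 and 0.342 FPKM in fresh frozen tissue. Car7, known mainly from neurons (chromosome 8, 105261321 to 105276975), measured 0.401 and 0.481 FPKM with RVC and 0.204 and 0.221 FPKM in fresh frozen tissue, again without overlap. Together these 5 genes summed to 2.26 to 3.40 FPKM, less than Car13 alone. For the main transcript of each of them the authors' lower confidence bound was above 0 in all 4 libraries. With no filter on low values, the groups did not overlap for 6 of the 10 members, against 12868 of 31792 genes.

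The order of the levels was firm in the upper part of the family and loose at both ends. Car4 was above Car1 in 3 of 4 libraries, at 0.803 to 1.33 times its level, so these neighbours did not differ beyond their spread. From there Car1, Car2, Car9, Car13 and Car12 followed each other in this order in 4 of 4 libraries, with ranges that did not overlap. The widest step lay between Car2 and Car9, where Car2 was 17.3 to 38.9 times as high. Among Car12, Car3, Car8, Car5b and Car7 the ranges of all neighbours overlapped, although Car8 was above Car5b in 4 of 4 libraries.

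Of 6 further carbonic anhydrase genes on a fixed list, 5 were read from the files and none was abundant. Car14, a membrane enzyme, had a mean of 2.07 FPKM, Car11, a related protein without enzyme activity, 1.15, Car15 0.784, Car10 0.040 and the secreted Car6 0.006 FPKM. Car5a was not analysed here.

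Car13, Car1, Car3 and Car2 lie in this order within 259 kb of chromosome 3. Their mean levels ran from 0.712 FPKM for Car3 to 1655 FPKM for Car1. Car3, with a mean of 0.712 ± 0.510 FPKM (SD, n = 4), ends 13749 bases before the start of Car2, at 569 FPKM on the same strand, and begins 55143 bases past Car1. Car1 is the only member of the cluster on the minus strand, 103213 bases past Car13. In the gap between Car13 and Car1, the files list Gm5843, annotated in GENCODE vM39 as a transcribed unprocessed pseudogene. It was listed at 76.7 and 71.3 FPKM with RVC and 71.8 and 66.2 FPKM in fresh frozen tissue, a mean of 71.5 ± 4.29 (SD, n = 4), above Car13 in every library. Its transcript matched the main Car1 transcript at 97.9% identity over 476 bases, so how reads were divided between Car1 and Gm5843 is uncertain. A shorter listed gene within Car1, Gm16399, was at 0 in all 4 libraries.

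**Figure D2:**
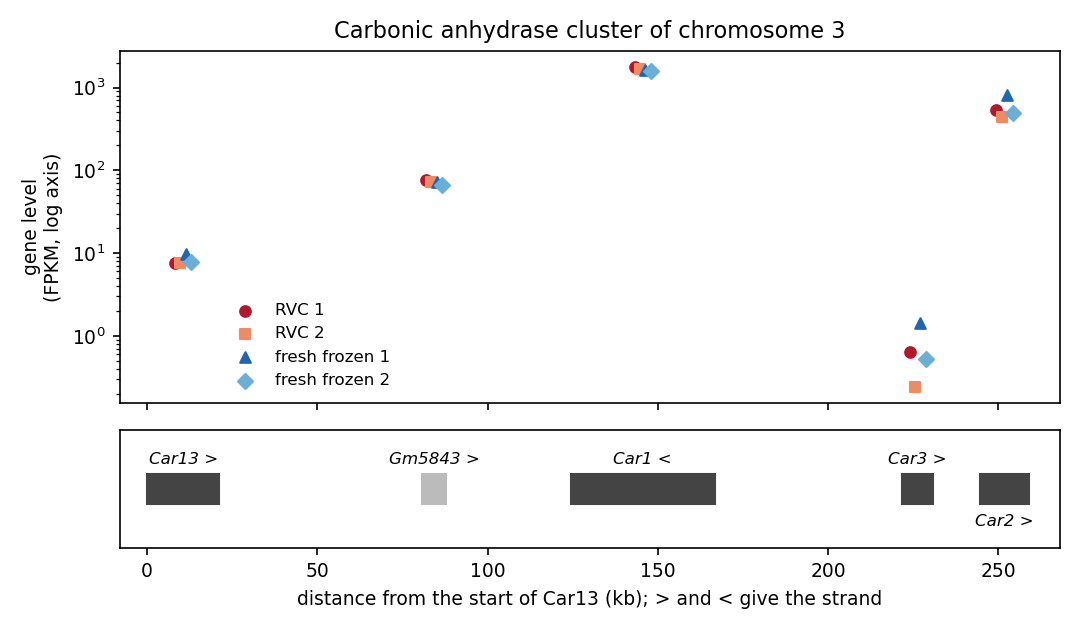
The chromosome 3 cluster, with gene levels in each library (FPKM, log axis) above a map drawn to scale in kb from the start of Car13; members are dark, the pseudogene Gm5843 is light, and Gm16399, at 0, is left out. Car1 (mean 1655 FPKM) and Car2 (569) flank Car3 (0.712) within the 259 kb.

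Most members were carried by 1 transcript. For Car1, ENSMUST00000094365, of 1180 nt, gave 97.3% ± 0.277 of the gene level (SD, n = 4). Car1 is known to be transcribed from 2 starts, the near one used in colon and a distant one in cells of the red blood lineage. The other 2 listed Car1 transcripts begin 29906 bases further upstream and summed to 48.5 and 38.9 FPKM with RVC and 48.7 and 41.9 FPKM in fresh frozen tissue, 2.35% to 3.03% of Car1. The sum was higher in the first library of each group than in the second, as was the longer of them (ENSMUST00000181860), while the shorter (ENSMUST00000144327) was at 8.39 and 7.85 FPKM with RVC and 6.51 and 7.43 FPKM in fresh frozen tissue. The main Car1 transcript alone measured a mean of 1610 ± 88.4 FPKM (SD, n = 4).

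Markers of red blood cells had the same high libraries. Hbb-bs, a beta globin gene, measured 146 and 41.8 FPKM with RVC and 148 and 29.4 FPKM in fresh frozen tissue. The alpha globin genes Hba-a2 and Hba-a1, which are near-identical and may share reads, had means of 62.7 and 45.9 FPKM. The 9 listed markers of the red blood cell list summed to 364 and 106 FPKM with RVC and 364 and 67.3 FPKM in fresh frozen tissue. The markers ranged over a far wider ratio than the distant-start Car1 transcripts, and their part in those values was not tested.

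For Car2, ENSMUST00000029078, of 1788 nt, gave 97.3% ± 1.22 of the gene level (SD, n = 4). A retained-intron transcript of 881 nt was nearly level, at 9.11 and 9.75 FPKM with RVC and 9.42 and 9.81 FPKM in fresh frozen tissue. The third transcript, ENSMUST00000192609, a coding one of 587 nt, ran against the gene, at 5.88 and 8.25 FPKM with RVC and 2.7e-05 and 2.87 FPKM in fresh frozen tissue. Its log2 difference of 2.00 (SE 0.65) was the widest of the member transcripts tested, with limma's adjusted p at 0.279, and the authors' lower bound was 0 in the first fresh frozen library. The Car2 value of the first fresh frozen library thus came from its main transcript, at 802 FPKM there against 417 to 520 FPKM in the other 3.

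Car4 had the least uniform makeup among the abundant members. Its main transcript, ENSMUST00000103194, of 1256 nt, measured 2199 and 1761 FPKM with RVC and 1349 and 1070 FPKM in fresh frozen tissue. A short coding transcript, ENSMUST00000108076, of 732 nt, begins 6559 bases further downstream and ends at the same base. It measured 137 and 157 FPKM with RVC and 257 and 171 FPKM in fresh frozen tissue, the reverse order of the groups. Its share of Car4 was 5.79% and 8.04% with RVC and 15.8% and 13.5% in fresh frozen tissue, without overlap. As a percentage of the main transcript it was 6.24 and 8.89 with RVC and 19.0 and 16.0 in fresh frozen tissue. By level, the groups did not overlap for 50.4% of all transcripts tested, and the same count over transcript shares was not computed. The authors' tool divides reads of overlapping transcripts by likelihood, so a shift between these 2 rows is a shift in the estimate over their shared and separate bases. The other 4 Car4 transcripts each had a mean below 10 FPKM.

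**Figure D3:**
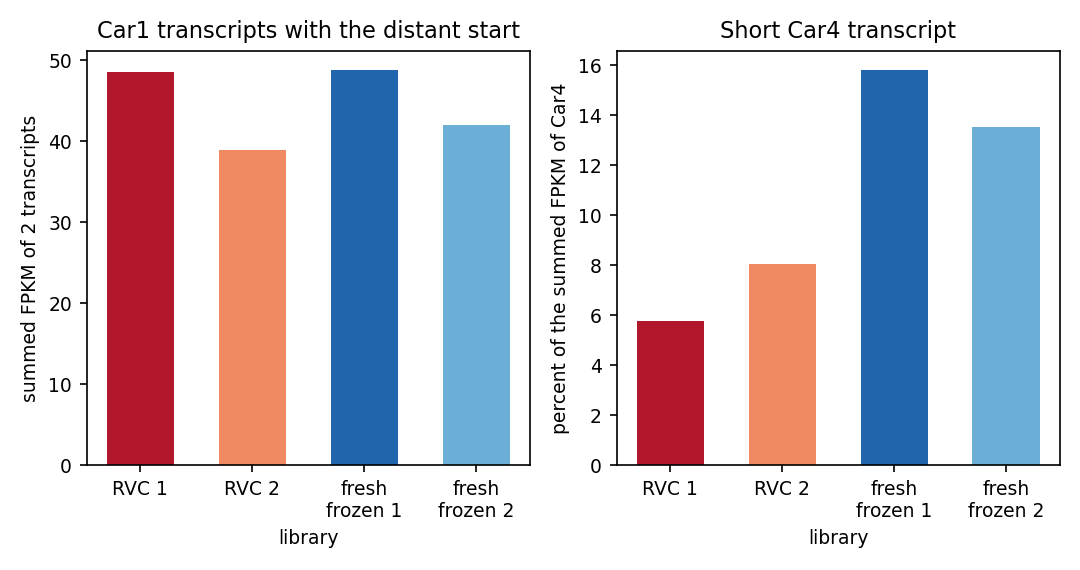
Left, summed FPKM of the 2 Car1 transcripts with the distant start in each library; right, the short Car4 transcript as a percentage of the summed FPKM of Car4, with 1 bar per library and no error bar because each bar is 1 library. The Car1 transcripts lie at 48.5 and 48.7 FPKM in the first library of each group and at 38.9 and 41.9 in the second, and the short Car4 transcript makes up 5.79% and 8.04% with RVC and 15.8% and 13.5% in fresh frozen tissue.

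For Car9, ENSMUST00000030183, of 2023 nt, gave 81.5% ± 1.32 of the gene level (SD, n = 4), and 13.5% came from a transcript of 374 nt without a defined coding sequence. Short transcripts have unstable FPKM values, and by coverage times length the main transcript made up 95.0% of Car9. Car13 and Car8 each had 1 listed transcript. The main transcripts of Car5b, Car7 and Car12 gave 97.1%, 82.6% and 77.2% of their genes on average. Car3 had no fixed main transcript. Its coding transcript gave 38.5% and 68.9% of the gene with RVC and 93.0% and 83.2% in fresh frozen tissue, and in the first RVC library a retained-intron transcript was the higher one, at 0.394 against 0.247 FPKM.

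RVC and fresh frozen tissue were compared with limma on log2(FPKM + 1) after scaling, across 13771 genes with a mean of at least 1 FPKM, and a gene was called at a Benjamini-Hochberg adjusted p under 0.05. Car1, Car2, Car4, Car9 and Car13 entered, and the 5 low members did not. None of the 5 was called, where 0.0363% of all genes tested were. At an unadjusted p under 0.05, 2 of the 5 (Car4 and Car9) passed by limma, against 18.4% of all genes tested, and both were higher with RVC, against 9.38%. This count rested on single libraries: neither passed without the first RVC library or without the second fresh frozen one, where Car2, lower with RVC, passed instead, and Car4 alone passed without the second RVC library. The groups did not overlap for 4 of the 5, against 53.2% of all genes tested. Of these 4, Car1, Car4 and Car9 were higher with RVC, against 26.5% of all genes, and Car13 was lower, against 26.6%. The median difference of the 5 was 0.11 on the log2 scale, RVC minus fresh frozen, against 0.0066 over all genes tested.

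Car4 was higher with RVC in both libraries, at scaled means of 2162 ± 309 against 1440 ± 233 FPKM (SD, n = 2 each). The log2 difference was 0.59 (SE 0.19), a ratio of 1.50 with a 95% interval of 1.11 to 2.05, and limma's adjusted p was 0.192. Car9 was higher with RVC by 0.35 (SE 0.11) on the log2 scale, a ratio of 1.27 with an interval of 1.06 to 1.52, and limma's adjusted p was 0.191. Both intervals lie above 1 for a single gene, and neither difference passed the adjustment over all genes.

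The other 3 differed less from their spread. Car1 differed by 0.11 (SE 0.15) on the log2 scale, with limma's adjusted p at 0.701 and an interval of the ratio from 0.848 to 1.38. Car13 differed by -0.16 (SE 0.13), with limma's adjusted p at 0.520 and an interval from 0.723 to 1.11. Car2 differed by -0.39 (SE 0.23), with limma's adjusted p at 0.394 and an interval from 0.525 to 1.12. The Car2 value rested on the fresh frozen libraries: it was -0.04 without the first of them and -0.73 without the second. For Car13 the difference was likewise -0.04 without the first fresh frozen library. In bulk RNA, fewer cells of a type and less RNA per cell cannot be told apart, and a permutation test of 2 against 2 libraries cannot go below p = 0.33.

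**Figure D4:**
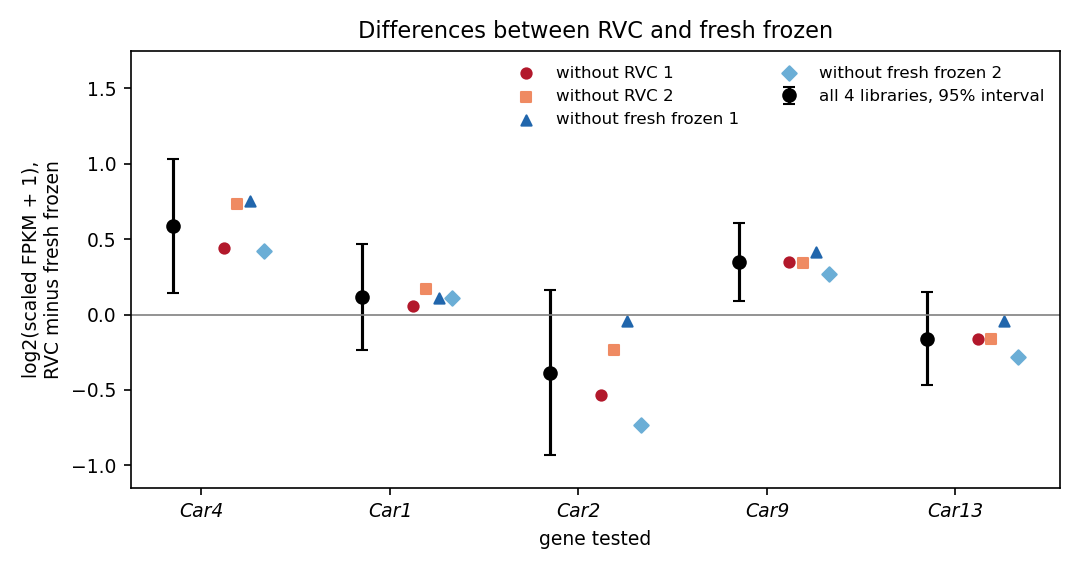
Difference between RVC and fresh frozen in log2(scaled FPKM + 1) for the 5 members tested, with its 95% interval (black, limma), and the same difference with each library left out (coloured points). Car4 (0.59) and Car9 (0.35) lie above 0 in every fit shown, and Car2 (-0.39) ranges from -0.73 to -0.04.

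Ratios of members within a library do not depend on scaling. Car4 over Car1 was 1.33 and 1.18 with RVC and 1.01 and 0.803 in fresh frozen tissue. Car4 over Car2 was 4.44 and 4.47 with RVC and 2.00 and 2.57 in fresh frozen tissue, the widest separation of the groups among the 5 ratios computed. Car2 over Car1 was 0.300 and 0.263 with RVC and 0.504 and 0.313 in fresh frozen tissue. Car9 over Car1 was 0.0140 and 0.0152 with RVC and 0.0130 and 0.0117 in fresh frozen tissue. In these 4 ratios the groups did not overlap, for Car2 over Car1 by a small margin, and in Car12 over Car9 they overlapped. By level, the groups did not overlap for 53.2% of all genes tested. The share over ratios of other genes was not computed, and the ratios share members, so they are not separate results. As a share of the family, Car4 made up 50.2% and 47.8% with RVC and 39.9% and 37.6% in fresh frozen tissue, and Car2 11.3% and 10.7% against 19.9% and 14.7%.

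By transcript, 15 of the 37 rows entered the same test among 24080 transcripts. None was called, against 0.00415% of all transcripts tested, and 5 had an unadjusted p under 0.05 by limma, against 15.6%. This last count rested on single libraries and moved in both directions when one was left out. The groups did not overlap for 10 of the 15, against 50.4%. The main Car4 transcript differed by 0.71 (SE 0.18) on the log2 scale, with limma's adjusted p at 0.248, and the short one by -0.51 (SE 0.20), at 0.324. The main Car9 transcript differed by 0.36 (SE 0.11), with limma's adjusted p at 0.273.

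The 5 low members were read in a fit without the filter on low values. Limma's adjusted p then lay between 0.402 for Car7 and 0.863 for Car12, and none was called. Car7 was higher with RVC by 0.25 (SE 0.06) on the log2(FPKM + 1) scale, which understates the change of such low genes.

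Markers of surface colonocytes, the cells known for Car4, lay mostly on the same side as Car4 without passing the test. Of 12 tested, 11 were higher and 1 lower with RVC, with a median log2 difference of 0.24, where 51.0% of all genes tested were higher. At an unadjusted p under 0.05 by limma, 4 of the 12 passed, against 18.4% of all genes tested: Saa1, Cdhr5 and Ceacam20, higher, and the water channel gene Aqp4, lower by the widest difference of the list (-0.95, SE 0.39). None was called by limma, whose lowest adjusted p in the list was 0.129. They were led by Saa1 (mean 3210 FPKM), the lectin gene Lgals4 (1791) and the chloride and bicarbonate exchanger gene Slc26a3 (1115). Their summed level was 10211 and 9836 FPKM with RVC and 9104 and 7447 FPKM in fresh frozen tissue, and their part in the Car4 difference was not tested. Smooth muscle genes were higher with RVC for 10 of 10 tested, with a median log2 difference of 0.77, 10 at an unadjusted p under 0.05 and none called by limma. Their sum was 1193 and 1757 FPKM with RVC and 747 and 798 FPKM in fresh frozen tissue, led by Actg2 (mean 288), Acta2 (263) and Cnn1 (152), genes of the contractile apparatus. Crypt and proliferation genes were lower for 5 of 7 tested, with a median of -0.24, and 3 (Mki67, Top2a and Cdk1), all lower, had an unadjusted p under 0.05 by limma. Goblet cell genes were higher for 6 of 10, with a median of 0.03, and the 2 with an unadjusted p under 0.05 by limma, Reg4 (-0.74) and Agr2 (-0.36), were lower. Pcna (mean 24.3 FPKM), Mki67 (7.77) and Top2a (7.69) led the crypt list, and Zg16 (8043), Clca1 (2916) and Tff3 (2722) the goblet list. Genes of enteric neurons and glia, led by Uchl1 (9.01), Snap25 (7.12) and Nos1 (2.31), were higher for 6 of 7 tested, with a median of 0.26 and 0 at an unadjusted p under 0.05. No gene of these lists was called by limma.

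Car3 was set beside markers of fat and muscle. Of the 10 adipocyte genes the most abundant were Pck1 (mean 53.9 FPKM), Fabp4 (5.09) and Plin4 (1.49), which other cells express too, and the summed list was 59.2 to 67.0 FPKM. Of the 10 genes, 4 (Adipoq, Cfd, Retn and Lep) were highest in the first fresh frozen library, where Car3 was highest. The other 6 were not: Pck1 and Cidec were highest in the first RVC library, Fabp4 and Plin4 in the second, and Lipe and Plin1 in the second fresh frozen one. These genes beyond the 3 most abundant are named after their values were seen. Adipoq, the adiponectin gene, measured 0.033 and 0 FPKM with RVC and 0.323 and 0.083 FPKM in fresh frozen tissue, and Cfd, the adipsin gene, 0.105 and 0 FPKM with RVC and 1.66 and 0.157 FPKM in fresh frozen tissue. Of the skeletal muscle list, Ckm (mean 3.25 FPKM), Mylpf (0.799) and Tnni2 (0.717) were the most abundant, and Pvalb was at 0 in all 4 libraries. The 9 listed muscle genes summed to 5.76 and 7.91 FPKM with RVC and 4.99 and 2.86 FPKM in fresh frozen tissue. This sum was highest in the library where Car3 was lowest, but single genes were split. Ckm, Tnni2 and Myh2 were highest in that library, and Mylpf, Tnnt3 and Actn3 in the first fresh frozen one, where Car3 was highest. Myh4 was highest in the first RVC library and Myh1 in the second fresh frozen one. The part of these cells in the Car3 values was not tested.

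Bicarbonate and acid transport genes work with the enzymes at the same membranes. Of 24 on the list 15 were tested, 9 higher and 6 lower with RVC, with a median log2 difference of 0.07 and none called by limma in either direction. At an unadjusted p under 0.05 by limma, 6 of the 15 passed, against 18.4% of all genes tested, 3 in each direction: Slc16a3, Slc4a4 and Slc9a2 higher, and Cftr, Slc5a8 and Slc4a7 lower. The most abundant were Slc26a3, the apical chloride and bicarbonate exchanger lost in congenital chloride diarrhoea, at 1249 and 1178 FPKM with RVC and 1188 and 846 FPKM in fresh frozen tissue, Slc26a2, a sulfate transporter gene, at a mean of 432 ± 12.8 FPKM (SD, n = 4), and Atp12a, the colonic proton and potassium pump, at 394 ± 115 FPKM. Slc26a9 was at 0 in all 4 libraries, and Best4 was not analysed here. Car1 and Car4 thus stood above the most abundant transporter of the list in every library.

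Genes of the hypoxia response were set beside Car9 and Car12. Of 15 tested, 11 were higher and 4 lower with RVC, with a median log2 difference of 0.18, where 51.0% of all genes tested were higher with RVC. At an unadjusted p under 0.05 by limma, 3 of the 15 passed, a share close to the 18.4% of all genes tested. Slc2a1 (0.29, SE 0.11), Egln3 (0.37, SE 0.15) and P4ha1 (0.33, SE 0.12) passed, all higher with RVC. Over all genes tested, 9.38% passed in that direction. No gene of the list was called by limma. The most abundant were Ldha (mean 623 FPKM) and Pgk1 (203), enzymes of glycolysis, and Hif1a (81.7), the regulator itself. Ldha differed by 0.32 (SE 0.15), Pgk1 by 0.08 (SE 0.15) and Hif1a by -0.06 (SE 0.11) on the log2 scale, beside 0.35 for Car9.

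The genes whose levels ran most like those of a member were found by the root mean square difference of centred log2 values over the 4 libraries. For Car4, among 5041 genes with a mean of at least 10 FPKM, these were Rhof, at 0.035, Mettl7a2, at 0.045, and Slc3a2, at 0.052. For Car3, the member with the largest SD of log2(FPKM + 1), they were Car2, at 0.044, Irgm1, at 0.10, and Isg15, at 0.12, among 5042 genes. Car2 and Car3 are neighbours on chromosome 3, and both were highest in the first fresh frozen library and lowest in the second RVC library. On the FPKM scale their ranges differed, at 5.94 times between the extremes for Car3 and 1.86 times for Car2, because the added 1 compresses values as low as those of Car3. A match over 4 libraries is a description of those libraries.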

How the data were processed

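RNA from 4 libraries (2 RVC, 2 fresh frozen) was depleted of ribosomal RNA and sequenced as 150-bp read pairs, per the labels' protocols. The authors aligned reads with TopHat2 2.1.1 to GRCm39 and estimated transcripts with Cufflinks 2.2.1, per the submitters' processing notes. The annotation release, strand setting and read totals are not given in the sources used here. Per the file headers, the deposited tables give each transcript's FPKM with its bounds, a coverage signal in reads per base, and the transcript's length in nt. As the deposited FPKM is a likelihood estimate without read numbers, count tests were not applied and absolute depth is unknown.

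Gene FPKM was the sum over transcripts. Libraries were scaled by median ratio (factors within 0.992 to 1.013) and log2(scaled FPKM + 1) was tested with limma 3.58.1 in R 4.3.3 (lmFit, eBayes with trend, two-sided, no covariate), with Benjamini-Hochberg adjustment. A gene or transcript entered with a mean of at least 1 FPKM, a length of at least 300 nt and an accepted estimate status in every library. On simulated data with 200 changed genes, 78.3% of 2-fold and 99.2% of 4-fold gene changes were recovered among 13558 genes. For transcripts it was 2.69% and 45.2% among 23050. The simulated noise was normal, independent between genes and drawn from limma's own fitted variances, with no batch effect. These shares hold for that setting and may overstate what these libraries allow.

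Members and lists were chosen with earlier results of these data known. Named genes were all members, and of every other list those called, the 3 most abundant and those at 0 in all 4 libraries, with the 3 genes most like each of 2 members. Outside this rule are the less abundant carbonic anhydrases of the fixed list, Gm5843, Gm12454 and Gm16399. So are Hoxd11, Hoxd12 and Hoxd13, further adipocyte and skeletal muscle genes, and genes named for an unadjusted p. All of these were chosen after their values were seen. Similar transcripts were sought with blastn 2.17.0 in GENCODE vM39 transcripts, at 95% identity or more over at least 150 bases. Tables were made with pandas 2.3.3 and figures with matplotlib 3.10.9. Alternatives were other pseudocounts, scalings, filters, gene summaries, a replicate block and each library left out.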

Additional observations from a re-analysis of the deposited data

How the results depend on the processing

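None of the 75 alternative fits of the 5 tested members, and none of the 60 of their main transcripts, changed the direction or brought a call. For Car4 the log2 difference ranged from 0.42 to 0.75 with limma's adjusted p from 0.144 to 0.635, and for Car9 from 0.27 to 0.42 with 0.146 to 0.572. For Car2 it ranged from -0.73 to -0.04 with limma's adjusted p from 0.167 to 0.919, for Car13 from -0.28 to -0.04 and for Car1 from 0.06 to 0.17. Over all genes, 5 were called by limma, against 0 with no filter on low values, 2 at a mean of at least 5 FPKM, 0 with no trend, 2 with each gene's most abundant transcript instead of the sum and 0 without transcripts under 300 nt. Leaving out 1 library gave 8 to 40 gene calls (29 and 8 without the first and second RVC library, 40 and 22 without the first and second fresh frozen one), where the lone library of a group is assumed to vary like the other group, and the cause was not tested. Over all transcripts 1 was called, against 0 with no filter, 6 at a mean of at least 5 FPKM, 7 with no length minimum and 0 to 0 with 1 library left out. With a replicate block on sample number there were 112 gene calls and 1 transcript call, none of a member. The labels do not say that equal numbers pair samples, and same-numbered samples did not deviate together (r = -0.13 across 13771 genes, which are not independent replicates). By coverage times length the main transcript made up 97.6% of Car1, 98.8% of Car2, 92.7% of Car4 and 95.0% of Car9, and by its main transcript alone Car9 measured 18.2 FPKM. FPKM without read totals gives no counting interval, so members under 1 FPKM are the least certain values.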
